A study of Mus musculus with 9 samples.

Results

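The NF-kB subunits and the feedback inhibitors that NF-kB itself switches on were described across inflamed mouse skin with and without mechanical stretch. The 10 genes were chosen by name (Rela, Rel, Relb, Nfkb1, Nfkb2, Nfkbia, Nfkbie, Nfkbid, Bcl3 and Tnfaip3), and 9 of them were measured among 19505 named genes, each by 1 array feature. Nfkb1 was not analysed here. The samples were back skin of C57BL/6J mice aged 8 weeks, from which the hair had been removed. The stretch group (5 arrays) received 5% imiquimod cream daily for 7 days on skin pulled by a plastic device that had been glued on and lengthened by 10 mm, and the no-stretch group (4 arrays) received the same cream on skin without that elongation. Imiquimod, a Toll-like receptor 7 agonist, induces psoriasis-like dermatitis and was given to both groups, so its own effect cannot be read here. An effect of stretch itself and a changed response to imiquimod under stretch cannot be told apart. The protocol does not say whether the no-stretch skin also carried the glued device, nor that arrays came from different mice, and p-values then cover only the spread among these samples, which may be technical. Values are log2 expression as deposited, a difference is stretch minus no stretch, and the threshold is a Benjamini-Hochberg adjusted p of 0.05 over all 19505 genes in limma's moderated fit. The comparison addresses which signalling pathways differ when inflamed skin is stretched.

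NF-kB transcription factors are dimers of Rel-domain proteins that wait in the cytoplasm, held there by IkB proteins. Signals from Toll-like, interleukin-1 and tumour necrosis factor receptors activate the IkB kinases, the IkB proteins are degraded, and the dimers enter the nucleus. Among the genes that the dimers then transcribe are several of their own inhibitors and subunits. The mRNAs of Nfkbia, Nfkbie and Tnfaip3 are commonly read as a record of recent pathway activity. The activity of the subunits is controlled largely at the protein level, though the mRNAs of some are also induced. In skin, keratinocytes, fibroblasts and infiltrating leukocytes all use the pathway.

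The promoters were searched for the NF-kB consensus, the kind of sequence through which this feedback is thought to run. The 250 bases before the outermost annotated start are shown for the inhibitors Tnfaip3, Nfkbie and Nfkbia, and for the subunit Rel, as the members of largest positive and negative difference together with the textbook feedback gene Nfkbia. The letters are from RefSeq (GRCm38.p6), 5′ to 3′ on the gene's strand, with matches to the 10-base NF-kB consensus on either strand in capitals.
Tnfaip3, chr10:19015411-19015660, minus strand: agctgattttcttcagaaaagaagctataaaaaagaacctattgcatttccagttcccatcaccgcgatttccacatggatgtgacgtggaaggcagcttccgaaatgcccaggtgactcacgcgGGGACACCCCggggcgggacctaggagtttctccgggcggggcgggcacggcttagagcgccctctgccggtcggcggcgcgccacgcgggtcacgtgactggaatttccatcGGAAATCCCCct
Nfkbie, chr17:45555450-45555699, plus strand: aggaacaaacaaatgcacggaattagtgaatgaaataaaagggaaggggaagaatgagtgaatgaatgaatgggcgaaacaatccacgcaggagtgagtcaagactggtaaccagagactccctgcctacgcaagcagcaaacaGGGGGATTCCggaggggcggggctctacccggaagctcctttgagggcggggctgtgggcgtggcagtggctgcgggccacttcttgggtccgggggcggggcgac
Nfkbia, chr12:55492648-55492897, minus strand: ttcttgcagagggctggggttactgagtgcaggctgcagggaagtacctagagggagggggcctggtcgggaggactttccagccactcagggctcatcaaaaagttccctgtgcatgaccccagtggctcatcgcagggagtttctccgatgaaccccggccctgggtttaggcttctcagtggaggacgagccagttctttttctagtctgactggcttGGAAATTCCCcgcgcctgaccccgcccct
Rel, chr11:23770970-23771219, minus strand: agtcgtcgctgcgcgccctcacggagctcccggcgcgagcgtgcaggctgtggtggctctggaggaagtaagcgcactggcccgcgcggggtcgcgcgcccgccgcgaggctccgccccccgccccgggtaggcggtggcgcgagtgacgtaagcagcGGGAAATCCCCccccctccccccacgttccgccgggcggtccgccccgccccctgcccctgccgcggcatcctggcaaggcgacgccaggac
The Tnfaip3 stretch holds GGGACACCCC, beginning 125 bases before the start and matching on both strands, and GGAAATCCCC, beginning 12 bases before it and matching on the opposite strand. Nfkbie has GGGGGATTCC at 106 bases before its start, Nfkbia has GGAAATTCCC at 29 bases, and Rel has the overlapping matches of GGGAAATCCCC at 92 bases.

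Of the 8 measured members with a promoter window in the RefSeq table (250 bases before to 50 after a start), 7 held at least 1 match. The share holding one was 9.55% among the 27025 genes with a window, and 10.6% among the 15691 of them that the array also named. Bcl3 had GGGAAGTCCC (chr7:19822744-19822753), 2 bases after an annotated start. In 1 of its 3 windows Nfkbid had GGGACTTCCC (chr7:30422180-30422189) and GGAATTCCCC (chr7:30422225-30422234). Nfkb2 had GGGAATTCCCC (chr19:46304698-46304708) and GGGGCTTTCC (chr19:46304726-46304735) in the first of its windows, which is not at the outermost start of the gene. It had GGGACTTTCC (chr19:46305705-46305714) in both of its later windows, which overlap, with GGAATGTCCC (chr19:46305459-46305468) in 1 of these. The window of Rela held no match, which says only that these letters are not in it. A match is a description of sequence, and several members have more than 1 window, which gives them more room for one.

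**Figure D1:**
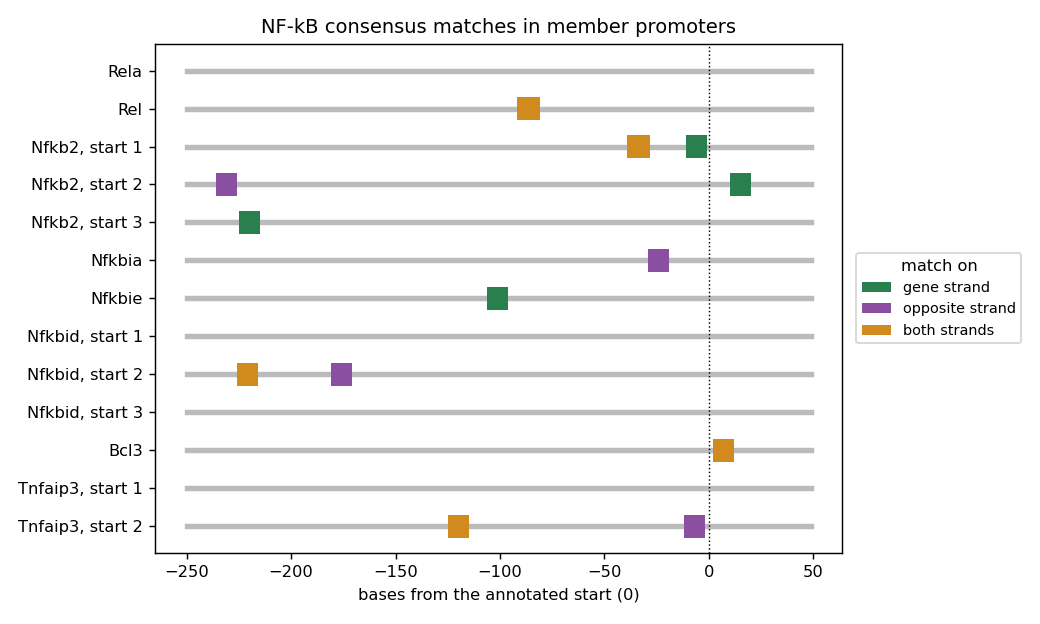
Matches to the NF-kB consensus (boxes, coloured by strand) in each RefSeq promoter window of the members (grey lines), against distance in bases from the annotated start at 0. Of the 8 members shown, Rela is the one with no box; Nfkb2 and Nfkbid have 3 windows each and Tnfaip3 has 2.

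None of the 9 members passed the threshold, at which 0.246% of all genes were called. At an unadjusted limma p under 0.05 there were 3, Tnfaip3, Nfkbie and Bcl3, all with higher means with stretch, and 13.0% of all genes met that criterion (6.92% with higher and 6.07% with lower means). The inhibitors, with Nfkbid and Bcl3 counted among them, had positive differences, and the subunits were divided. Of the 9 differences 7 were above 0, as were 49.6% of those of all genes, and the exceptions were Rela and Rel. The positive differences of Nfkbid and Nfkb2 turned negative when certain single arrays were left out. The median difference of the 9 was 0.27, against -0.0034 over all genes, whose quartiles were -0.20 and 0.20. For none of the 9 did the groups separate completely on single arrays, which 4.54% of all genes did (2.38% with stretch higher and 2.15% with stretch lower). In whole skin, fewer cells of a type and less RNA per cell cannot be told apart.

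**Figure D2:**
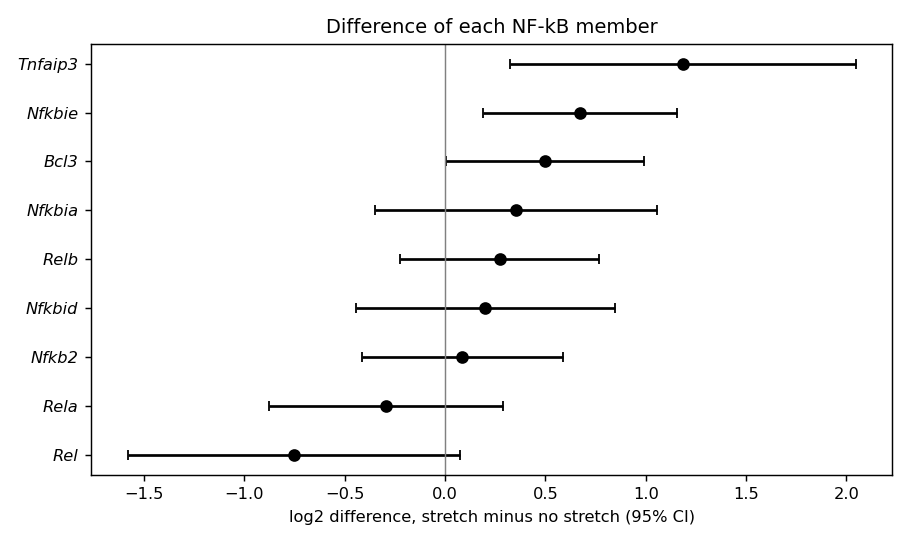
Log2 difference (stretch minus no stretch) of each measured member with its 95% confidence interval from limma. The differences run from -0.75 for Rel to 1.19 for Tnfaip3, and the intervals of Tnfaip3, Nfkbie and Bcl3 lie above 0.

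Tnfaip3 encodes A20, a ubiquitin-editing enzyme that shuts down signalling above the IkB kinases. Its levels in stretch replicates 1 to 5 were 11.31, 10.43, 9.35, 11.64 and 10.91, against 9.36, 9.14, 9.78 and 9.88 in no-stretch replicates 1 to 4. Of the 5 stretched samples, 4 lay above every non-stretched one, while replicate 3 was within the non-stretched range. The means were 10.73 ± 0.89 with stretch and 9.54 ± 0.35 without (SD, n = 5 and 4), a log2 difference of 1.19 (95% confidence interval 0.33 to 2.05) or 2.28-fold, with limma adjusted p = 0.23. Without stretch replicate 3 the difference was 1.53 and passed (limma adjusted p = 0.035), and without stretch replicate 4 it was 0.96. Tnfaip3 was the one member to pass in any of the fits that left out 1 array. It did not pass in the other 8 of these fits, in which the limma adjusted p reached 0.42.

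Nfkbie encodes IkB-epsilon, an inducible cytoplasmic inhibitor that binds mainly RelA and c-Rel dimers. It was at 5.37, 5.31, 4.81, 5.89 and 5.26 in stretch replicates 1 to 5, against 4.28, 4.87, 4.64 and 4.83 in no-stretch replicates 1 to 4. The groups overlapped only at stretch replicate 3, which was just below no-stretch replicates 2 and 4. The difference was 0.67 (95% confidence interval 0.19 to 1.16), or 1.59-fold, with limma adjusted p = 0.22, the smallest among the 9. Its signal ranked low on the array, at percentile 40.2 of all genes. Relb and Nfkbid ranked lower still, at percentiles 35.5 and 37.0, and differences of such dim signals may be compressed.

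Nfkbia encodes IkB-alpha, the fast inhibitor that is both degraded on activation and resynthesised at once. Its levels spanned 13.49 to 14.68 with stretch and 13.00 to 14.43 without. The ranges lay over each other almost entirely: 1 stretched sample, replicate 4, was above all non-stretched ones. The difference was 0.35 (95% confidence interval -0.35 to 1.05), with limma adjusted p = 0.68, and it was 0.11 without no-stretch replicate 2 and 0.59 without no-stretch replicate 3.

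The nuclear IkB proteins act on dimers already bound to DNA. Bcl3, which joins homodimers of the small subunits and can activate as well as repress, was at 7.18, 7.54, 7.20, 7.90 and 7.70 in stretch replicates 1 to 5, against 7.42, 6.81, 6.55 and 7.24 in no-stretch replicates 1 to 4. All 5 stretched samples were above the non-stretched mean and 3 were above its highest sample. The difference was 0.50 (95% confidence interval 0.01 to 0.99), or 1.41-fold, with limma adjusted p = 0.38. Nfkbid, which encodes IkBNS, a regulator of late inflammatory genes in macrophages and lymphocytes, spanned 4.13 to 5.69 with stretch and 4.33 to 5.10 without. Its difference was 0.20 (95% confidence interval -0.44 to 0.84), and its highest and lowest levels of all 9 arrays were both in stretched samples, replicates 4 and 3.

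Among the subunits, Rel, which encodes c-Rel, a subunit prominent in lymphoid and myeloid cells, had the difference of largest size and it was negative. Its levels in stretch replicates 1 to 5 were 9.88, 9.48, 11.49, 9.96 and 10.71, against 11.32, 11.48, 11.07 and 10.36 in no-stretch replicates 1 to 4. Stretch replicates 1, 2 and 4 lay below every non-stretched sample, while replicate 3 had the highest level of all 9 arrays. The difference was -0.75 (95% confidence interval -1.58 to 0.08), with limma adjusted p = 0.43. It was -1.05 without stretch replicate 3 (limma adjusted p = 0.14) and -0.55 without stretch replicate 2. Across the fits that left out 1 array, the limma adjusted p reached 0.61. The interval of Rel did not overlap that of Tnfaip3 or of Nfkbie, but these are the extremes among the 9 members. The contrast between them was not tested.

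Rela encodes RelA, the main activating subunit of the canonical dimer. It was at 9.29, 10.53, 10.15, 10.48 and 10.69 in stretch replicates 1 to 5, against 10.68, 10.65, 10.53 and 10.22 in no-stretch replicates 1 to 4. Stretch replicate 1 stood alone at the low end, and the other stretched samples lay near or within the non-stretched range. The difference was -0.29 (95% confidence interval -0.88 to 0.29) and was -0.06 without stretch replicate 1. In that array the mean of 7 skeletal muscle markers was also low, at 14.30, against 15.93 to 16.36 in the other stretched samples and 15.50 to 16.17 in the non-stretched ones; its part in Rela was not tested.

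The non-canonical arm, in which the product of Nfkb2 is processed and pairs with RelB, showed differences whose intervals include 0. Relb spanned 4.07 to 5.30 with stretch and 4.30 to 4.68 without, a difference of 0.27 (95% confidence interval -0.22 to 0.77) that was 0.13 without stretch replicate 3 and 0.44 without stretch replicate 1. Nfkb2 spanned 6.30 to 7.00 with stretch, inside its range of 6.09 to 7.10 without stretch, a difference of 0.09 (95% confidence interval -0.41 to 0.59). The difference of Nfkb2 was negative when stretch replicate 4 was left out (-0.0021) and when no-stretch replicate 2 was (-0.069), so no direction can be given for it. For Nfkbid the difference was -0.018 without stretch replicate 4.

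**Figure D3:**
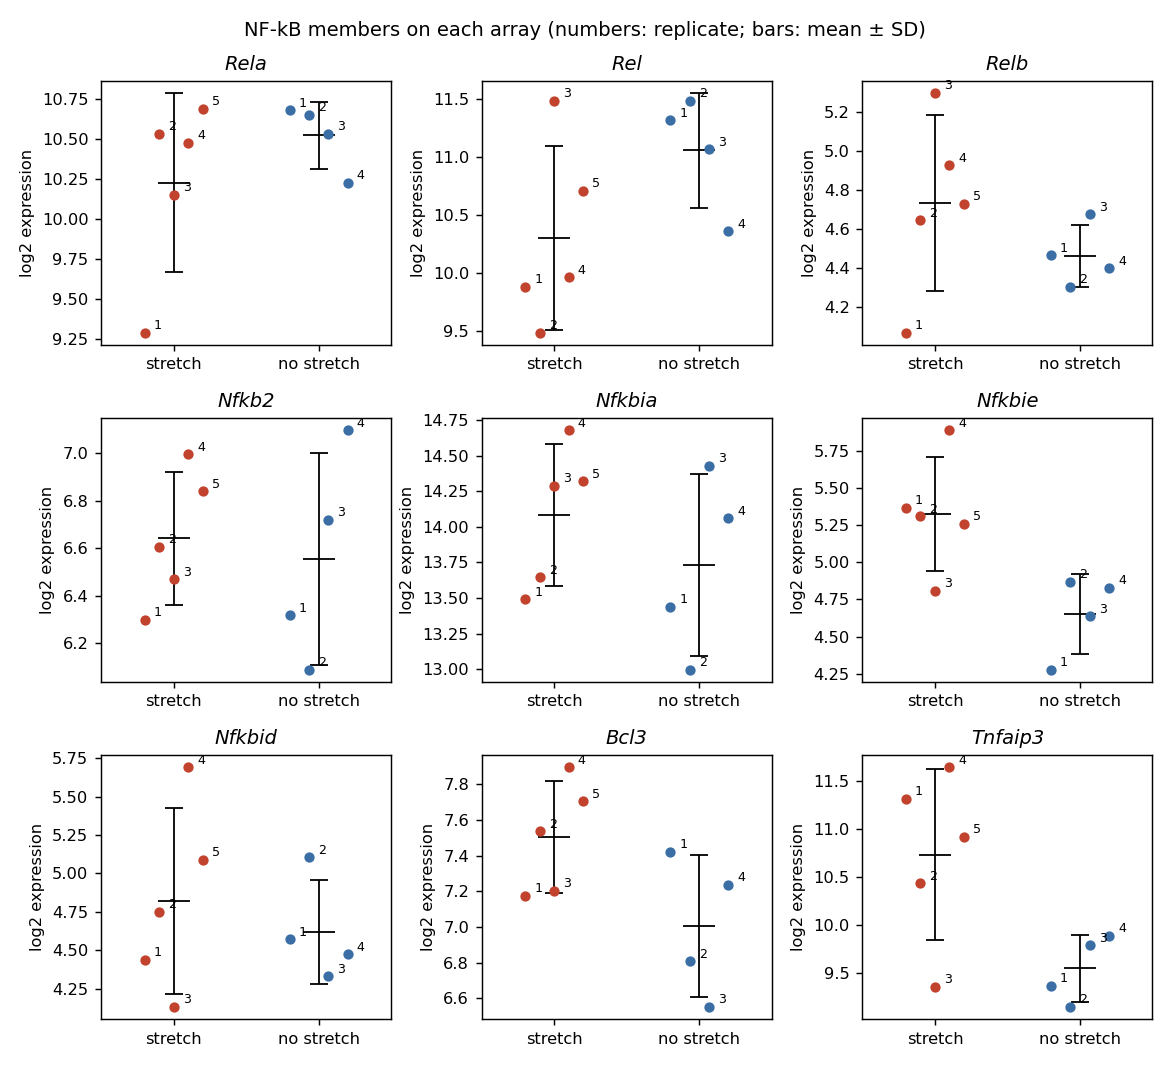
Log2 expression of the 9 measured members on each array, stretch at left (5 arrays) and no stretch at right (4 arrays); numbers are replicates, black bars are mean ± SD, and each panel has its own axis, which does not start at 0. Stretch replicate 3 falls among the non-stretched samples for Tnfaip3 and Nfkbie and is the highest array for Rel.

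The members did not share 1 order of arrays. Stretch replicate 4 had the highest level of all 9 arrays for 5 of the 9 members: the inhibitors Nfkbia, Nfkbie, Nfkbid, Bcl3 and Tnfaip3. Stretch replicate 3 was highest for Rel and Relb but ranked eighth for Tnfaip3 and lowest for Nfkbid. Stretch replicate 1 had the lowest level of Rela and Relb and yet the level of Tnfaip3 and Nfkbie next to the highest. No-stretch replicate 2 was lowest for Nfkb2, Nfkbia and Tnfaip3.

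Array-wide, medians lay between 5.81 and 5.86 with stretch and, slightly higher, between 5.87 and 5.99 without. The lowest array weights belonged to stretch replicate 1 (0.55) and no-stretch replicate 3 (0.58). Keratinocyte markers such as Krt5 and Krt14 were present at high signal, which fits the label of skin: the mean of 10 markers was 16.45 to 17.14 with stretch and 16.49 to 17.12 without. Of these 10, 4 had positive differences. In 3 the unadjusted limma p was under 0.05, all with higher means with stretch, as for 6.92% of all genes, and none passed the threshold. Pan-leukocyte markers had higher means with stretch: all 10 had positive differences, 8 at an unadjusted limma p under 0.05 and none past the threshold. Their mean was 12.22 to 13.48 with stretch against 10.81 to 12.39 without. Over all genes, 49.6% had positive differences, and 6.92% had higher and 6.07% lower means at that unadjusted p. All 10 measured neutrophil markers of 12 had positive differences (list mean 11.06 to 12.73 with stretch, 9.37 to 10.56 without), as did all 9 measured macrophage markers of 10 (11.65 to 13.05 with stretch, 11.22 to 12.42 without). T cell markers (7 of 10 measured) had 0 positive differences, and 1 had an unadjusted limma p under 0.05, a share near the 13.0% of all genes. Their mean was 4.66 to 5.11 with stretch and 5.06 to 5.59 without. All of these T cell markers but Cd4 were dim, at percentile 43.3 of all genes or lower. Dendritic and Langerhans cell markers (9 of 9) had 1 positive difference and 4 negative ones at an unadjusted limma p under 0.05. Their mean was 6.28 to 7.07 with stretch and 7.02 to 7.48 without. Fibroblast markers (6 of 7 measured) had 0 positive differences, 4 negative ones at an unadjusted limma p under 0.05, and a mean of 15.62 to 16.15 with stretch and 16.69 to 17.01 without. Dpt, the dermatopontin gene, was the one marker of any list to pass (difference -2.30, limma adjusted p = 0.025). No marker reads 0 on such an array, and detection calls were not used here. On single arrays, the pan-leukocyte mean was highest in stretch replicate 4 and lowest among stretched samples in replicate 3, the samples at which Tnfaip3 and Nfkbie were also highest and lowest among stretched samples. Bcl3 was also highest in stretch replicate 4 but was lowest among stretched samples in replicate 1. Among non-stretched samples the pan-leukocyte mean was lowest in replicate 3, where Bcl3 was also lowest but Tnfaip3 and Nfkbie were not. The part of leukocyte content in the differences of the members was not tested.

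**Figure D4:**
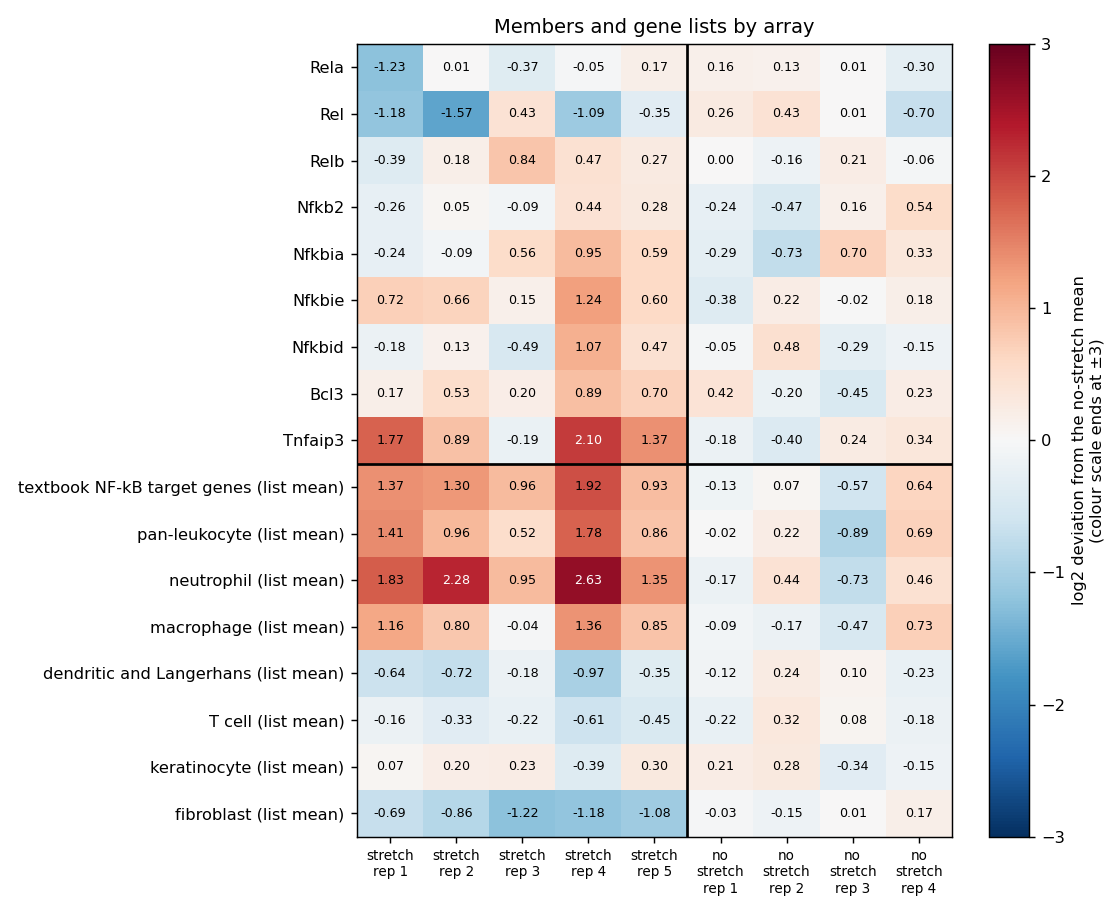
Log2 deviation of each array from the mean of the 4 no-stretch arrays, for each member (upper rows) and for the mean of each gene list (lower rows); stretch arrays are left of the black line. Tnfaip3 deviates by 1.77, 0.89, -0.19, 2.10 and 1.37 in stretch replicates 1 to 5, and the pan-leukocyte mean by 1.41, 0.96, 0.52, 1.78 and 0.86.

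The rest of the pathway was read from lists chosen for their roles. Of the 97 further pathway genes measured, out of 105 listed, 1 passed the threshold, the target gene Ptgs2. Of the 19 measured further inhibitors and brakes none passed; 3 had an unadjusted limma p under 0.05, all with positive differences, a share near the 13.0% of all genes, and the median difference was 0.15. They were Otulin, the deubiquitinase that removes linear ubiquitin chains, with a difference of 0.61 (limma adjusted p = 0.14), Commd1, which promotes the turnover of RelA, at 0.56 (limma adjusted p = 0.31), and Itch, a ubiquitin ligase that works with A20, at 0.44 (limma adjusted p = 0.36). Otulin was at 9.19 to 9.54 with stretch and 8.52 to 8.98 without, and its groups did not overlap. Those of Commd1 barely separated, with the lowest stretched sample at 11.139 and the highest non-stretched one at 11.125. Among all genes, 4.54% had groups that did not overlap. Rnf11, another partner of A20, was at 0.36 (limma adjusted p = 0.54).

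Of the 10 measured kinases of the IkB kinase arm none passed, 1 had an unadjusted limma p under 0.05, where 13.0% of all genes did, and the median difference was 0.12. That gene was Ikbke, a kinase related to the IkB kinases, with a difference of 0.56 (limma adjusted p = 0.27). Its relative Tbk1 was at 0.16, and the kinase partners Tab1 and Tab2 were at 0.30 and -0.48; leaving out 1 array took these to 0.08 (Tbk1, without stretch replicate 4), 0.19 (Tab1, without stretch replicate 3) and -0.30 (Tab2, without stretch replicate 1). Of the 15 adaptors and scaffolds none passed, 2 had an unadjusted limma p under 0.05, about the 13.0% of all genes, and the median difference was 0.02. They pointed in opposite directions. Irak2, a kinase of the interleukin-1 and Toll-like receptor complex, was at 8.72, 8.44, 8.38, 8.41 and 7.80 in stretch replicates 1 to 5, against 7.71, 7.59, 7.72 and 7.61 in no-stretch replicates 1 to 4, a difference of 0.69 (limma adjusted p = 0.15). Card14, the keratinocyte scaffold that couples to Bcl10 and Malt1, was at 7.39, 7.21, 7.33, 7.21 and 7.66 with stretch, against 8.16, 8.02, 8.48 and 7.93 without, a difference of -0.79 (limma adjusted p = 0.082). For both genes every stretched sample lay on one side of every non-stretched sample, as for 4.54% of all genes. The adaptors Tradd and Card9 were at 0.30 and 0.28, or 0.20 without no-stretch replicate 1 (Tradd) and 0.18 without no-stretch replicate 2 (Card9).

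Upstream, none of 13 receptors and none of 10 ligands passed. At an unadjusted limma p under 0.05, which 13.0% of all genes met (6.92% with higher means), there were 4 receptors, all with positive differences: Il1r1, the interleukin-1 receptor, at 1.33, Tlr4 at 0.96, Tlr2 at 0.95 and Tnfrsf1b, a tumour necrosis factor receptor, at 0.94, with limma adjusted p-values between 0.22 and 0.29. Tlr2, Tlr4 and Tnfrsf1b are also expressed by leukocytes. There were 2 ligands, Il1b at 3.71 (limma adjusted p = 0.070) and Tnfsf11, known as RANKL, at 0.59 (limma adjusted p = 0.33). Tnfsf14 and Il1a were at 0.52 and 0.54, or 0.28 without no-stretch replicate 1 (Tnfsf14) and 0.34 without stretch replicate 3 (Il1a).

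The textbook target genes had larger positive differences, on the median, than the members, and this contrast was not tested. Of 30 measured, 28 had positive differences, 16 had an unadjusted limma p under 0.05, all of them positive, and in 9 the groups did not overlap, all with stretch higher; over all genes 6.92% were positive at that unadjusted p and 2.38% had non-overlapping groups with stretch higher. The median difference was 0.75. Ptgs2, the inducible cyclooxygenase, was the one to pass (difference 3.61, limma adjusted p = 0.045), and it missed the threshold in 7 of the 9 fits that left out 1 array, passing only without stretch replicate 3 or no-stretch replicate 4. The targets with the next smallest p-values were Ier3, an early-response survival gene, at 1.91 (limma adjusted p = 0.053), the neutrophil chemokine Cxcl2 at 5.47 (limma adjusted p = 0.054) and the gelatinase gene Mmp9 at 1.74 (limma adjusted p = 0.070). Ier3 was at 11.00, 12.43, 11.82, 12.46 and 12.70 in stretch replicates 1 to 5, against 10.19, 9.76, 9.80 and 10.92 in no-stretch replicates 1 to 4, so that its groups did not overlap. The neutrophil, macrophage and pan-leukocyte markers had positive differences too, and the T cell and dendritic cell markers mostly negative ones; their part in the target genes was not tested. All lists were chosen with earlier results of these data known, and Il6 and Il1b are named in the series title, so the direction of these counts is not independent evidence.

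**Figure D5:**
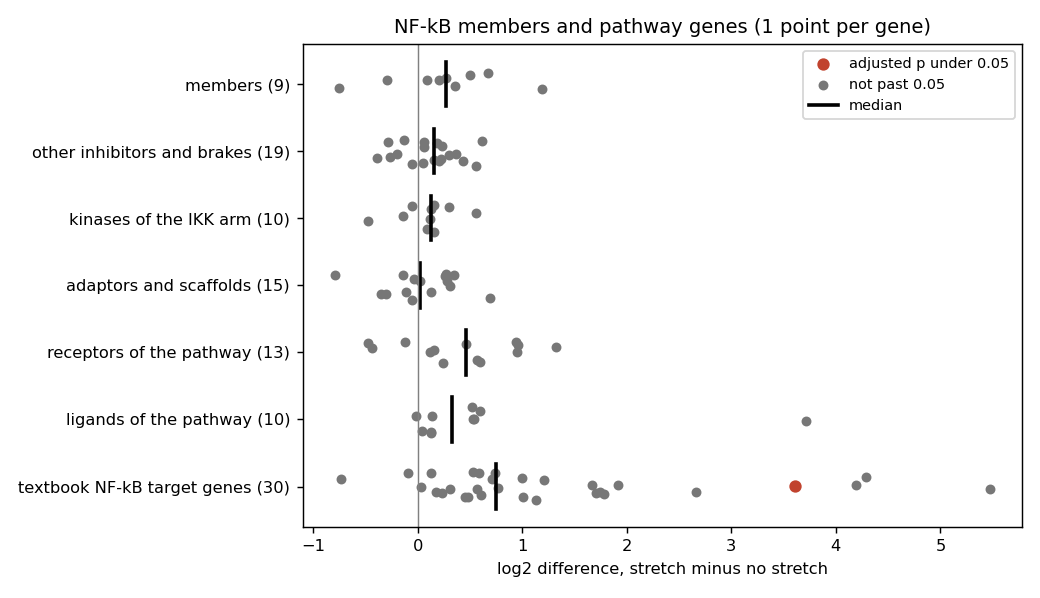
Log2 difference (stretch minus no stretch) of each gene, 1 point per gene, for the 9 members and the 6 pathway lists, with the number measured in brackets and the median as a black bar. The medians are 0.27 for the members and 0.75 for the target genes, and Ptgs2 is the one gene past the threshold.

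The gene whose pattern within the groups was most like that of Nfkbie, the member with the largest moderated t, was Cd63, a tetraspanin of late endosomes, with Pearson r = 0.977 over deviations from the group means on 9 arrays. The next were Trpm2, 6330409D20Rik, Mthfd1l and Tekt1, with r between 0.945 and 0.953. These are the highest of all genes by construction and are given as a description.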

How the data were processed

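Log2 expression values of 22206 array features were deposited by the authors; RMA and Transcriptome Analysis Console are named for them, per the submitters' processing notes, with no versions. RMA commonly compresses low values, so differences of dim genes may be understated, which was not measured here. The genome build is not given in the sources used here; detection calls were not used. Biotinylated cRNA was made from total RNA, per the labels' protocols.

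Features were named through the platform annotation (19572 named, 2634 unnamed), and the brightest feature was kept for each of 55 genes with several, giving 19505 genes. Groups came from sample titles. The groups were compared in R 4.3.3 by limma 3.58.1 (lmFit, then eBayes) without covariates, and all tests are two-sided. The number of arrays limits the precision (median standard error 0.21). The script was tested on simulated data.

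The members and lists were chosen with earlier results of these data known. Named genes are the members and, per pathway list, those past the threshold and the 4 of smallest p. Alternatives covered normalization, filters on dim genes, feature averaging, all features, the variance model, array weights, a replicate block, a threshold of 0.1 and leaving out arrays.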

Additional observations from a re-analysis of the deposited data

Results flagged for a closer look

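Among the 66 groups of arrays checked (both groups for each of the 33 genes named as members or pathway genes), 2 held an array far from the rest of its group. That is no more than chance gives, which is about 1 in 20 groups. Ptgs2 was at 4.75 in no-stretch replicate 3, against 7.23 to 7.37 in the other no-stretch arrays. Tab1 was at 5.32 in no-stretch replicate 1, against 5.72 to 5.78 in the others. None of the 9 members had such an array.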

How the results depend on the processing

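The differences of 7 of the 9 members kept their sign in every alternative that could be computed for them; the exceptions were Nfkb2 and Nfkbid. Leaving out single arrays moved the log2 difference between -0.069 and 0.27 for Nfkb2 (-0.0021 without stretch replicate 4), between -0.018 and 0.37 for Nfkbid, and between 0.96 and 1.53 for Tnfaip3, which passed without stretch replicate 3 (limma adjusted p = 0.035). The number of members past the threshold was 0 to 1 in those fits and 0 in every other alternative. Relb, Nfkbie and Nfkbid were not tested where the dimmer 50% of genes was left out.

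Past the threshold, against 48 of all genes and 1 of the pathway genes, were 211 and 10 at an adjusted p of 0.1, 157 and 6 with array weights, 103 and 7 without the dimmer 50% of genes, 105 and 4 without the dimmest 25%, 75 and 2 after quantile normalization, and 2 to 195 and 0 to 9 without single arrays. Pathway genes past it numbered 2 after median centring, 3 with a variance trend and 0 over all features. Without both arrays of lowest weight, an alternative chosen after seeing the data, 15 genes and 0 pathway genes passed. The cause was not tested.

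Same-numbered arrays showed little shared deviation (correlations -0.06, -0.02, 0.06 and 0.34), but such a figure can miss pairing that shows in some genes only. For Cxcl2 and Ptgs2, arrays 1 to 4 ranked in the same order in both groups, whereas for Tnfaip3 and Nfkbie they did not. Whether replicate numbers pair the samples was not tested further. With the replicate block on arrays 1 to 4, 221 genes, 11 pathway genes and 0 members passed; with the replicate block as a random effect, 100, 3 and 0.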
